A study of Mus musculus with 12 samples.

Results

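The Ptch1 domain is the 700 kb of mouse chromosome 13 from 63.4 to 64.1 Mb (mm10) that holds the Hedgehog receptor gene Ptch1 together with Fancc, Ercc6l2 and Hsd17b3. It was chosen by its measured GLI1 sites and H3K27ac fold enrichments in these same lists, so the site counts and H3K27ac values below are a description and carry no test. Every GLI1 site and every H3K27ac interval that touched the window was taken: 30 of 2605 GLI1 sites (1.15%), 181 of 76437 H3K27ac intervals of dox cells, and 56 of 67463 intervals of control cells. Where a dox and a control interval had 1 bp or more in common they were joined, which gave 176 of 94481 regions. Ptch1 spans chr13:63508328-63573460 and Fancc chr13:63301334-63497292, both on the minus strand and the second only partly inside the window. Ercc6l2 spans chr13:63810979-63900302 on the plus strand and Hsd17b3 chr13:64058274-64089262 on the minus strand.

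Chromatin immunoprecipitation and sequencing had been done on cardiac progenitor cells made from mouse embryonic stem cells, line GLI1-FTA on the A2Lox.cre background, harvested on day 6. Dox cells had received 500 ng/ml doxycycline for 24 hours to express tagged GLI1. Control cells were the same line without doxycycline. Each condition had 2 samples of GLI1 pulldown (captured on streptavidin), 2 of H3K27ac and 2 of input, 12 samples in 6 groups. The authors pooled the samples of a group before calling peaks, so each condition is 1 list, no spread between samples can be given and no difference was tested. No group of the series received doxycycline without the GLI1-FTA construct, so doxycycline and GLI1 cannot be told apart. Whether the line is a single clone is not given in the sources used here. The GLI1 list comes from dox cells, and no GLI1 sites of control cells were analysed here.

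The Hedgehog signal is read through PTCH1, a membrane receptor that holds the signal transducer SMO inactive until a Hedgehog ligand binds. GLI transcription factors then act on target genes, and Ptch1 is itself a textbook GLI target, so its product limits the pathway that induced it. Hedgehog signalling is known to act on second heart field progenitors, which build the outflow tract and the atrial septum. H3K27ac is a histone mark found at active promoters and enhancers. FANCC is a subunit of the Fanconi anaemia core complex, which acts in the repair of DNA interstrand crosslinks. ERCC6L2 is an SNF2-family ATPase linked to DNA double-strand break repair, and HSD17B3 is the testicular enzyme that turns androstenedione into testosterone.

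Fold enrichment below is the authors' value at a summit, the read pileup over a local background. Which library gave that background is not given in the sources used here. For a region in both lists, the highest dox fold enrichment was divided by the highest control fold enrichment, and log2 ratios are given relative to the median over the 35389 shared regions of the series (−0.13 uncentred). A region is called higher or lower in dox cells when this ratio is at least 1 in size. In bulk chromatin, more cells that carry the mark and more of the mark per cell cannot be told apart. Of 9 cardiac progenitor marker genes used to check the labelled cell type, Isl1 had fold enrichments of 21.0 in dox and 20.2 in control cells at its start. Mef2c, Tbx20 and Hand2 were also marked in both lists, with Hand2 at 10.8 in dox and 24.5 in control cells. Kdr (2.82) and Pdgfra (5.14) had a region in dox cells alone, and the starts of Nkx2-5, Tbx5 and Gata4 had none in either list.

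The promoters of the 4 genes are shown first because their starts, which the rest of the domain is measured against, differ in base composition and in H3K27ac. Each sequence runs from 250 bases before to 50 bases after the start (RefSeq, GRCm38.p6) and is written 5′ to 3′ on the gene's own strand, with every CpG in capitals. The Ptch1 promoter lies at chr13:63565686-63565985 on the minus strand and Fancc's at chr13:63431696-63431995 on the minus strand. Ercc6l2's lies at chr13:63814990-63815289 on the plus strand and Hsd17b3's at chr13:64089152-64089451 on the minus strand.
Ptch1: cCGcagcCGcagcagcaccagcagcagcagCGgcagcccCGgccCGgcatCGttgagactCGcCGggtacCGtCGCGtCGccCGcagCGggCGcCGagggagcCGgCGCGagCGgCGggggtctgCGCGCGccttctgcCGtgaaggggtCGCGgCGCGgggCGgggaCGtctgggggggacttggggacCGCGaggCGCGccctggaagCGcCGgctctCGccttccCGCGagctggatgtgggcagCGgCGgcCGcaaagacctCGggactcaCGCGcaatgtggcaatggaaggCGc
Fancc: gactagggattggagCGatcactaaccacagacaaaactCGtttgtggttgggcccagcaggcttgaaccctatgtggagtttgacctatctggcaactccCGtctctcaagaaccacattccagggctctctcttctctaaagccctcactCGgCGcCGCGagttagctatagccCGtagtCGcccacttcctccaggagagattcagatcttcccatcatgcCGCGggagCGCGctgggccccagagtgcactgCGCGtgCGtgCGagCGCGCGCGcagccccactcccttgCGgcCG
Ercc6l2: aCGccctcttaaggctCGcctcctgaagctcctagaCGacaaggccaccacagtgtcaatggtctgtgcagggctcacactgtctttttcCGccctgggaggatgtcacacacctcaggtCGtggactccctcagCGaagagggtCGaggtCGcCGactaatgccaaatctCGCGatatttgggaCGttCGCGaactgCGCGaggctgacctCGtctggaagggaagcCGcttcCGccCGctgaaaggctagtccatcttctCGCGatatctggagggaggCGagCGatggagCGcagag
Hsd17b3: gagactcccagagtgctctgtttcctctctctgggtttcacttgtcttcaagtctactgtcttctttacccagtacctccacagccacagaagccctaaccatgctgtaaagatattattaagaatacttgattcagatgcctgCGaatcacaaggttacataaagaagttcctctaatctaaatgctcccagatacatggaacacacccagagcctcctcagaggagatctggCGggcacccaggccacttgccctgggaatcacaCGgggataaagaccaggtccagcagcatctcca

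The Ptch1 promoter held 47 CpGs at a GC content of 76.3%, and 1.44% of 32851 RefSeq promoters of this length held as many or more. Ercc6l2 held 25 CpGs and Fancc 23, against a median of 7 over all promoters. Hsd17b3 held 3. The starts of the 3 CpG-richer genes carried H3K27ac in both lists, and the start of Hsd17b3 carried none in either.

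The GLI consensus GACCACCCA and its reverse complement TGGGTGGTC, searched on both strands, had no exact match in any of the 8 promoters of the window that the table gives. Over all 32851 promoters, 0.253% held an exact match and 6.74% a match with at most 1 mismatch. Of the 45 promoters of the table that overlap a GLI1 site, 5 (11.1%) held an exact match and 21 (46.7%) one with at most 1 mismatch. Within the domain the single match with 1 mismatch was GATCACCCA, at bases 154 to 162 of the promoter of the long noncoding RNA gene Gm46423 (chr13:63906669-63906968, minus strand), shown in capitals.
Gm46423: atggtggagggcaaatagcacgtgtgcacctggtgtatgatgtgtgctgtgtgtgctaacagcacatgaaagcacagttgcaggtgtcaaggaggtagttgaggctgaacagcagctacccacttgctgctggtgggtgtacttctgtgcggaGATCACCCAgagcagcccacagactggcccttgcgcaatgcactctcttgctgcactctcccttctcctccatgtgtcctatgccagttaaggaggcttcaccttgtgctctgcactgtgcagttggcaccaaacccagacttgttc
A match of these letters is a description and not a site, and the 5230 bp between the start of Gm46423 and the nearest GLI1 site place it outside the bound windows. The sequences of the 30 GLI1 sites themselves were not used here.

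The 30 GLI1 sites, each a window of 101 bp around a summit that the deposited name describes as replicated and holding a Gli motif, lay in 2 groups. The first 18 ran from chr13:63476156 to 63731937 around and beyond Ptch1, and the other 12 from 63899009 to 64035284 between the 3′ end of Ercc6l2 and Hsd17b3. A gap of 167071 bp without a site, which contains the start of Ercc6l2, separated them, while neighbouring sites were otherwise closer, with a median gap of 8942 bp and a lowest of 224 bp. Fancc held 1 site, Ptch1 6, Ercc6l2 1 and Hsd17b3 none. Another 9 sites lay in lncRNA genes (6 in 1700024I08Rik, 2 in LOC102632415 and 1 in Gm46423), and 13 in no annotated gene. Exons and introns were not separated. Of the 30 sites, 1 lay within 1000 bp of a gene start of the promoter table, 722 bp upstream of the Ptch1 start.

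Site strength, the authors' −log10 q, ranged from 2.23 over a median of 81.1 to 589 in the domain, against a median of 30.8 over all 2605 sites. The domain held 20 sites at or above that median, 7 of the 100 strongest sites of the series and 2 of the 10 strongest. The strongest GLI1 site of the whole series, at 589, was chr13:63980454-63980554, in the intergenic stretch between Ercc6l2 and Hsd17b3. It was followed within the domain by chr13:64003203-64003303 at 421 (rank 8 of all sites) and chr13:63951322-63951422 at 303 (rank 27), in the same stretch. Beyond Ptch1 the strongest were chr13:63612094-63612194 at 229 (rank 60) and chr13:63573558-63573658 at 226 (rank 62). So the 3 strongest sites of the domain stood between 44654 and 73786 bp from the nearest start of the promoter table, and the fifth stood just upstream of the outermost annotated end of Ptch1. The weakest were chr13:63528723-63528823 at 2.23 and chr13:64003801-64003901 at 2.44, each less than 1000 bp from a stronger site, and chr13:63476156-63476256 in Fancc at 3.03. The nearest sites outside the window were at 63330359 on the Fancc side, with 27.9, and at 65070090 on the Hsd17b3 side, with 48.7. The outermost dox intervals inside the window had fold enrichments of 4.84 and 7.43, and the first ones outside it 2.89 and 2.95.

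**Figure D1:**
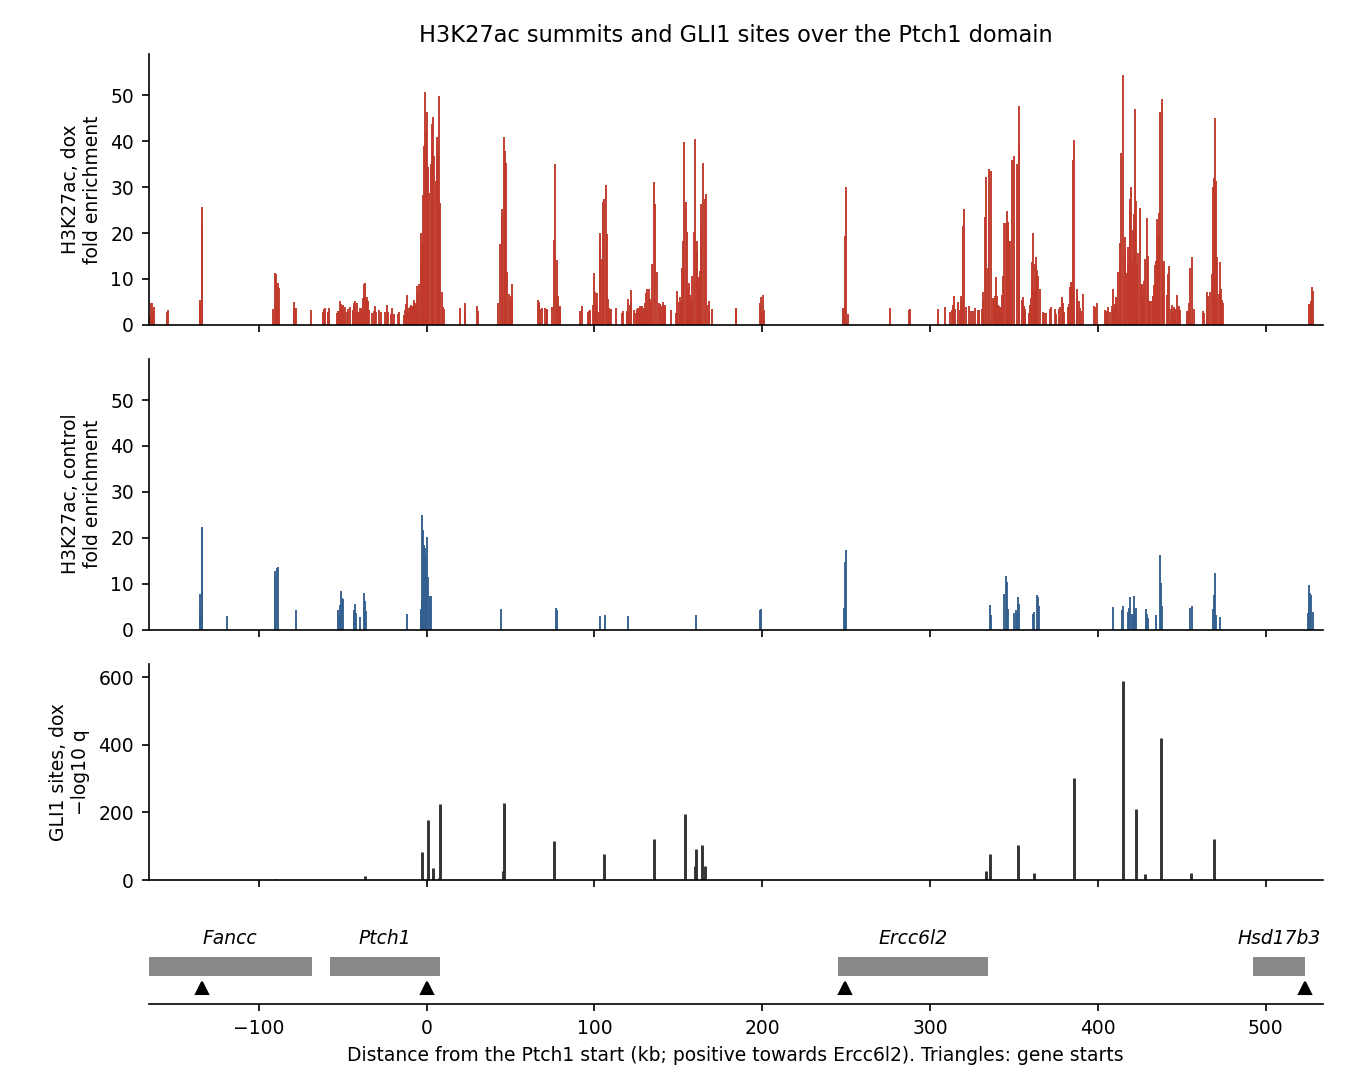
H3K27ac summits in dox cells (top) and control cells (under it), as fold enrichment, and GLI1 sites of dox cells (below them), as −log10 q, against distance from the Ptch1 start in kb, with gene extents as grey bars and gene starts as triangles. Dox summits of 40 or more stood at Ptch1 and at several places beyond it where no gene start lies, control summits stayed at or below 25.0, and the tallest GLI1 site (589) lay between Ercc6l2 and Hsd17b3.

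All 30 sites lay in a dox H3K27ac interval (100.0%, exact 95% binomial interval 88.4 to 100.0%, counting error only), where 75.0% of all 2605 sites did. In the control list 13 of the 30 sites did (43.3%, 25.5 to 62.6%), where 25.0% of all sites did. By group, 5 of 18 sites around and beyond Ptch1 (27.8%) and 8 of 12 sites beyond Ercc6l2 (66.7%) lay in a control interval. Neighbouring sites share intervals and are not independent, which the binomial intervals do not take into account. The difference between the groups was not tested. Over the 30 sites, the highest dox fold enrichment within 1000 bp ranged from 9.12 over a median of 40.1 to 54.4. A control summit lay within 1000 bp of 19 sites, with a fold enrichment from 3.13 over a median of 7.04 to 25.0. The remaining 11 sites had no control summit that near, 9 of them in the group around and beyond Ptch1.

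Among the 19 sites with summits in both lists, dox over control fold enrichment ranged from 0.84 over a median of 5.26 to 12.9, without centring. The highest, 12.9, was shared by 2 neighbouring sites in 1700024I08Rik that had the same summits (dox 40.5, control 3.13). At the strongest GLI1 site the values were 54.4 in dox and 5.22 in control cells. Control was higher at a single one of the 19, the weak site in Fancc, with 11.4 in dox and 13.6 in control cells. Sites less than 1000 bp apart share summits and are not independent points.

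At most GLI1 sites the nearest dox summit stood beside the site. The nearest dox summit was 310.5 bp from the site in the median (19 to 526 bp), against 269 bp over the 1955 sites of the series in a dox interval. It was 200 to 600 bp away at 24 of 30 sites (80.0%), against 73.8% of those 1955. Dox summits lay on both sides within 1000 bp at 29 of 30 sites, against 96.6%. In this the domain resembled the sites of the series at large.

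**Figure D2:**
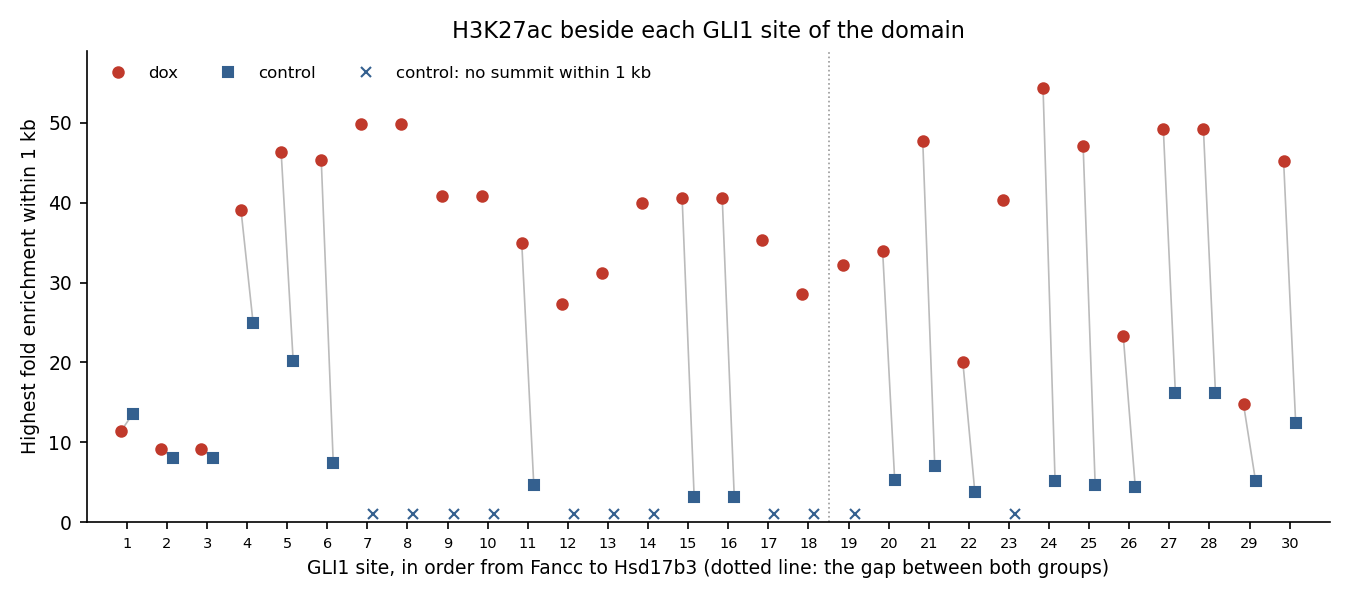
Highest H3K27ac fold enrichment within 1 kb of each of the 30 GLI1 sites, in order from Fancc to Hsd17b3, with dox cells as circles, control cells as squares, and crosses where the control list has no summit within 1 kb. Dox values exceed control values at 18 of the 19 sites that have both, and 9 of the 11 crosses lie left of the dotted line that marks the gap between the groups of sites.

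Ptch1 carried the widest H3K27ac of the domain. Its region at chr13:63555749-63576304 spanned 20556 bp as a single dox interval, second in width among all 76437, and held 37 dox summits, 13 control summits in 2 control intervals covering 6174 bp, and 5 GLI1 sites. The highest fold enrichment was 50.7 in dox and 25.0 in control cells, 243 and 103 reads at the summit, a log2 ratio of 1.15 (95% counting interval 0.82 to 1.5). The highest pileups anywhere in the region were 281 reads in dox and 114 in control cells, at other summits. Taken at equal depth, without the local background, these gave a ratio of 0.94, under the limit of 1. Pileups at equal depth are taken in this way throughout. Relative to the start, the dox summit of highest fold enrichment lay at −1142 bp and the control one at −2445 bp, both inside the gene. Within 1000 bp of the start at position 63565735 the highest summits were 46.3 in dox and 20.2 in control cells, a log2 ratio of 1.33.

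Upstream of this start the lists parted. The annotation gives Ptch1 an outer start at position 63573460, 7725 bp further upstream. Within 1000 bp of it the dox fold enrichment was 49.8, about as high as at the main start, and the control list had no summit, its nearest being 5110 bp away. Past the outer start dox summits reached 26.4 and control summits were absent. Dox cells thus had H3K27ac summits within 1000 bp of both starts, and control cells of 1 of the 2. A GLI1 site lay on each side of the outer start, the stronger at a −log10 q of 226. The start of LOC102632415, a long noncoding RNA gene that runs the other way, lies at the far edge of the same region, with a summit of 7.05 in dox cells and none in control cells.

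**Figure D3:**
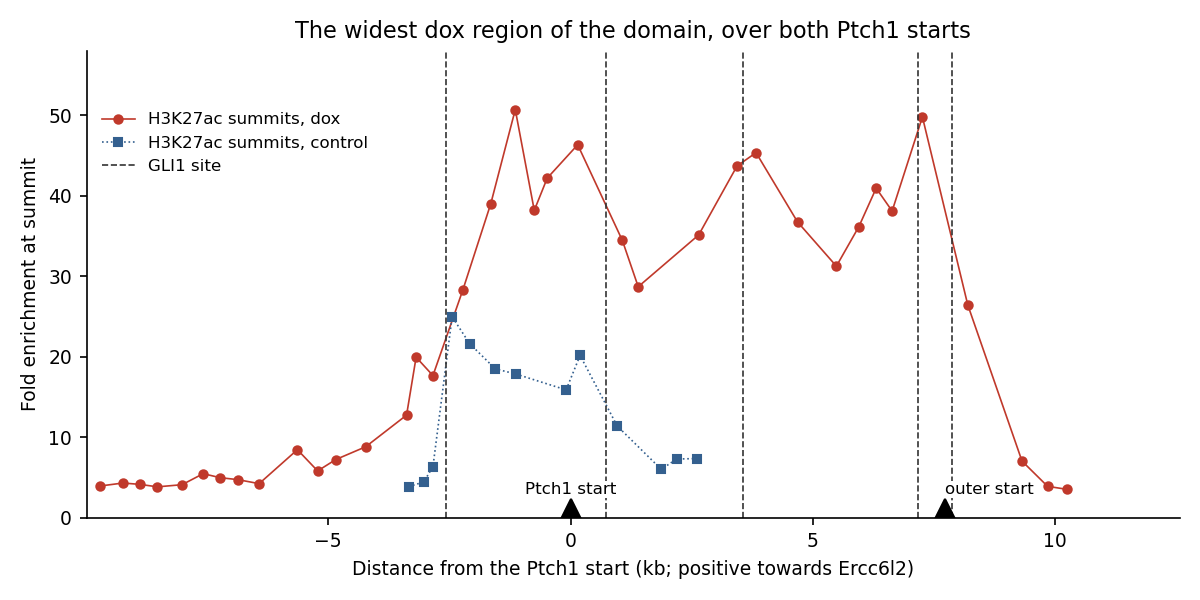
Fold enrichment of H3K27ac summits over the Ptch1 region, in dox cells (circles, solid line) and control cells (squares, dotted line), against distance from the Ptch1 start in kb, where positive values lie upstream of Ptch1. Triangles mark the start and the outer start and dashed lines the 5 GLI1 sites. Control summits end before the outer start, where dox summits still reach 49.8.

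Within the gene, H3K27ac intervals covered 57.7% of Ptch1 in dox and 21.0% in control cells. The difference of 36.7 percentage points had rank 3 among 9464 genes of at least 20 kb, whose median coverage was 2.16% in dox and 1.81% in control cells. Ptch1 touched 7 shared and 26 dox-only regions. Further inside the gene, the region chr13:63527584-63530847 with the 2 GLI1 sites farthest inside the gene had 9.12 in dox and 8.08 in control cells, a log2 ratio of 0.31 (−0.31 to 0.92). The pileups of that region at equal depth gave −0.60. The lowest ratio of the domain, −0.60 (−1.32 to 0.10), was at chr13:63513399-63516157 in the same gene, which holds no GLI1 site, with 5.12 in dox and 8.48 in control cells. By pileups at equal depth it was −1.17, past the limit for a lower region. Parts of 1 gene thus stood on either side of 0.

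The stretch from Ptch1 to Ercc6l2 held the largest ratios of the domain. It contains 11 GLI1 sites and no protein-coding gene, and its H3K27ac intervals covered 77.2 kb in dox and 2.95 kb in control cells, 26.2 times as much. The highest control fold enrichment anywhere in it was 4.70, and the highest dox value 40.9. None of its 11 sites lay in a control interval.

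In that stretch, the region chr13:63714995-63734479 over the 5′ part of the long noncoding RNA gene 1700024I08Rik was 19485 bp wide as a dox interval, rank 3 of all, and held 5 GLI1 sites. It had 40.5 in dox and 3.13 in control cells, 205 and 11 reads. The log2 ratio was 3.83 (2.96 to 4.85), second among the 35389 shared regions of the series. The control value rests on 1 interval of 202 bp in that region. At the start of 1700024I08Rik itself the dox summit within 1000 bp was 5.30, and control cells had none. The region chr13:63664643-63674378, with 1 site, had 30.4 in dox and 3.12 in control cells and a log2 ratio of 3.42 (rank 7). At chr13:63608800-63617481, with 2 sites, the values were 40.9 in dox and 4.49 in control cells and the ratio 3.32 (rank 12). At chr13:63640916-63644836, with 1 site, they were 35.0 in dox and 4.70 in control cells and the ratio 3.03 (rank 22). The region chr13:63696841-63705446 with 1 site was absent from the control list and had 31.2 in dox cells. All 5 places had weak or no H3K27ac in control cells.

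Beyond Ercc6l2, between that gene and Hsd17b3, lay the strongest GLI1 sites. Intervals covered 94.9 kb in dox and 19.0 kb in control cells, 4.98 times as much, so control cells had more of the mark here than in the stretch between Ptch1 and Ercc6l2. The strongest GLI1 site and another with a −log10 q of 210 lay in chr13:63973941-63989613, 15673 bp wide. This region had the highest dox fold enrichment of the domain, 54.4, against 7.31 in control cells, a log2 ratio of 3.03 (2.46 to 3.65). Its neighbour chr13:63989666-63996236 had 25.5 in dox and 4.44 in control cells, a ratio of 2.65.

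The site at 303 lay in chr13:63947623-63954055, which was absent from the control list and had 40.3 in dox cells, the highest of the 33496 dox-only regions of the series. The site at 421 lay in chr13:63997982-64005950, where control cells already had 16.2 and dox cells 49.2, a log2 ratio of 1.74 (1.33 to 2.16). Strong GLI1 sites of dox cells thus lay both where control cells had H3K27ac and where they had none called. A further 4 regions with a site in this stretch had log2 ratios between 1.54 and 2.33. They were chr13:63911201-63920008 (47.7 in dox, 10.4 in control cells), chr13:64032291-64040295 (45.2 in dox, 12.4 in control cells) and chr13:64019819-64022590 (14.8 in dox, 5.16 in control cells). The fourth, chr13:63925227-63931720 over an end of the lncRNA gene Gm30950, had 20.1 in dox and 7.57 in control cells.

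**Figure D4:**
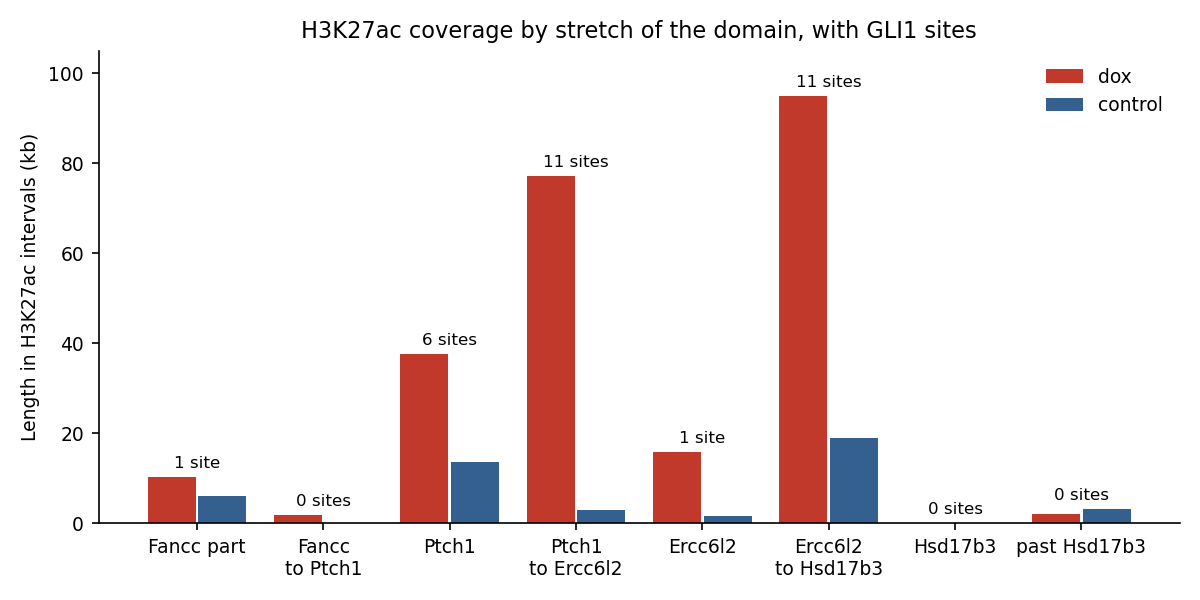
Length of the domain covered by H3K27ac intervals in kb, in dox cells (left bars) and control cells (right bars), for each stretch bounded by the 4 genes, with the number of GLI1 sites above. The stretches on either side of Ercc6l2, with 11 sites each, have 77.2 kb and 94.9 kb in dox cells, against 2.95 kb and 19.0 kb in control cells, and Hsd17b3 has no bar.

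At its start Fancc had 25.8 in dox and 22.4 in control cells, 160 and 97 reads, a log2 ratio of 0.33 whose counting interval (−0.04 to 0.71) includes 0. The single site in Fancc, 44461 bp from its start, lay in chr13:63474642-63478183 with 11.4 in dox and 13.6 in control cells, a ratio of −0.12 (−0.67 to 0.43). The pileups of this region at equal depth gave 0.10. Intervals covered 10.3% of Fancc in dox and 5.05% in control cells. The only control-only region of the domain, chr13:63446480-63446679 with 3.05, was also in Fancc.

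Ercc6l2 had 30.0 in dox and 17.2 in control cells at its start, a log2 ratio of 0.93 (0.56 to 1.31). The summit pileups were 138 reads in dox and 110 in control cells, over local backgrounds of 3.63 and 5.44 reads, and the pileups at equal depth gave −0.03. The ratio at the Ercc6l2 start thus differs with and without the local background. Its 3′ end was different: the region chr13:63896506-63902783, which holds 2 GLI1 sites and reaches into Gm46423, had 33.9 in dox and 5.33 in control cells. That log2 ratio of 2.80 (2.12 to 3.55) was 2.82 by pileups at equal depth. Intervals covered 17.7% of Ercc6l2 in dox and 1.75% in control cells, a difference that ranked 55 among the 9464 genes.

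Hsd17b3 had no H3K27ac interval anywhere in the gene in either list, and no GLI1 site. Its start lay 53967 bp from the nearest site. Within 5000 bp of the start, outside the gene, the values were 8.16 in dox and 9.75 in control cells, a log2 ratio of −0.12. Of the other genes of the window, Gm7695 (6.05) and Slc35d2 (3.89) had a region within 1000 bp of an annotated end in dox cells alone, and Gm30709 and Gm30999 had none. Gm46423 had a highest summit within 1000 bp of its start of 4.32 in dox cells and none in control cells, inside a dox-only region of 10.4. The region next to that start, chr13:63907176-63911135, had 22.3 in dox and 11.7 in control cells, a ratio of 1.05. Next to the window, Zfp367 had 13.8 in dox and 22.5 in control cells, a ratio of −0.58 (−1.05 to −0.11), and Aopep had no region at its start.

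Of the 176 regions of the domain, 146 were in the dox list alone, where 35.5% of all regions of the series were, and 1 was in the control list alone, where 27.1% were. Of the 29 shared regions 17 were higher in dox cells, against a background of 6.78% of all shared regions, and 0 were lower, against 8.31% (by pileups at equal depth, chr13:63513399-63516157 was). Their median log2 ratio was 1.11, and 24 of 29 were above 0. The uniform background recovered from the lists was 3.63 reads in dox and 2.83 in control cells, a depth ratio of 1.28. With the dox list scaled down to the control depth, 138 of 168 regions of the domain were dox-only, where 34.2% of all regions were. A stricter threshold, −log10 q 10 or more, gave 28 dox-only and 7 higher shared regions. Merging intervals up to 1000 bp apart gave 41 dox-only and 11 higher shared regions. For the stricter threshold and the merging, shares over all regions of the series are not given here.

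Regions with a GLI1 site carried the larger ratios. Of the 17, 15 were shared and 2 dox-only, 13 of the 15 were higher in dox cells, and their median log2 ratio was 2.33 (−0.12 to 3.83). Over the series, 1760 regions held a site, of which 783 were shared and 974 dox-only. Of those 783, 401 were higher in dox cells, and the median was 1.03. Of the 159 regions of the domain without a site, 14 were shared, 4 of them higher in dox cells, with a median of 0.43 and a highest of 1.12, and 144 were dox-only. Of the 34606 shared regions of the series without a site, 1998 were higher in dox cells, and the median was −0.01. Of all 92721 regions of the series without a site, 32522 were dox-only. The dox-only regions without a site were mostly weak, with a median fold enrichment of 3.46. The dox-only regions of the series without a site also had 3.46. The strongest dox-only region of the domain without a site, chr13:63883958-63887594 inside Ercc6l2, had 25.3, against a highest of 35.0 over the series.

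Width set the dox list apart as well. Of 181 dox intervals of the domain, 13 were wider than 5000 bp (7.18%, against 0.955% of all dox intervals), and each was in a region with a GLI1 site. How many of the 730 dox intervals of such width in the series lay in a region with a site is not given here. Of 56 control intervals 0 were (1.10% of all control intervals), and the widest had 4096 bp. Intervals covered 239.6 kb of the domain (34.2%) in dox and 46.3 kb (6.61%) in control cells, 5.18 times as much, with a mean summit fold enrichment of 10.5 in dox and 7.07 in control cells. Over the whole lists the ratio of covered length was 1.10.

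Both adjoining stretches of 700 kb had lower counts. On the Fancc side there was 1 GLI1 site and a covered length of 35.6 kb in dox and 40.4 kb in control cells. The running peak numbers of the lists skip there, so these lengths may be incomplete. On the Hsd17b3 side there was no site, and 13.8 kb was covered in dox and 11.9 kb in control cells. The 700 kb around Foxf1, a forkhead gene known as a Hedgehog target in splanchnic mesoderm, came closest to the domain among the windows compared, with 19 sites and 210.2 kb in dox and 62.2 kb in control cells, 3.38 times as much. The 700 kb around Pkdcc, a secreted tyrosine kinase gene, had 9 sites and a ratio of 1.13. Among 3114 adjoining windows of 700 kb laid over the genome, including those that cut the domain, 1369 held a site, the highest number was 18, and the longest dox coverage was 156.6 kb. The domain was placed around its sites and those windows were not, so their counts are not on equal terms. A covered-length ratio of at least 5.18 occurred in 70 of them.

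Among 23 Hedgehog pathway genes, Ptch1 was 1 of 14 with a region at the start in both lists. Higher in dox cells were 3 of the 14, where 3.55% of 10105 protein-coding genes were. These were the ligand-binding inhibitor gene Hhip with 21.6 in dox and 5.15 in control cells (2.20), Gli1 with 35.4 in dox and 9.03 in control cells, and Ptch1 (1.15, and 0.94 by pileups at equal depth, which ends its call). Ptch1 had the highest control fold enrichment of these 3. The endogenous Gli1 gene and the introduced GLI1 construct were not told apart here. Disp1, which encodes the transporter that releases the ligand, was lower, with 8.49 in dox and 19.0 in control cells (−1.03), where 1.93% of protein-coding genes marked in both lists were. The list's median was −0.14, against 0.14 over all protein-coding genes. Kif7, Lrp2 and Gpr161 had a region in control cells alone, as 2.03% of all protein-coding genes did. Another 6 genes, the ligand genes Shh, Ihh and Dhh among them, had none, as 46.6% did. Within 50000 bp of the start, Ptch1 had 9 GLI1 sites, Gli1 4 and Hhip 1.

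The starts of Fancc and Ercc6l2 were set beside those of genes of related function. Of all 20642 protein-coding genes analysed, 10105 were marked in both lists and 46.6% had no region in either. Among the 10105, 3.55% were higher and 1.93% lower in dox cells, and the median was 0.14. Of 17 Fanconi anaemia genes, 16 were marked in both lists, 0 were higher or lower, and the median was 0.30, with Fancc at 0.33 between Brca2 at −0.08 and Fanci at 0.96. Of 16 SNF2 and excision repair genes, all were marked in both lists, 0 were higher or lower, and the median was 0.33, with Ercc6l2 at 0.93 (−0.03 by pileups at equal depth). Of 10 analysed genes for 17β-hydroxysteroid dehydrogenases, 6 were marked in both lists, and Hsd17b4 alone was higher, with 8.09 in dox and 2.91 in control cells (1.61). Hsd17b3 was 1 of the 4 with no region in either list.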

How the data were processed

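Members and gene lists were chosen with earlier results of these data known. The authors pooled the samples of each group, called peaks on the pool, and removed blacklisted regions, per the deposited names. Bowtie2 2.3.2, SAMtools 1.5 and MACS2 2.1.1 with build mm10 are named, without roles, per the submitters' processing notes. The deposited H3K27ac lists give a fold enrichment (a ratio of pileup to local background) and a −log10 p and −log10 q per summit. The deposited GLI1 list gives a value per site that was read as −log10 q from the layout of such files.

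Intervals sharing at least 1 bp were merged into regions. A gene took the regions within 1000 bp of its start in the RefSeq promoter table (GRCm38.p6), or of both annotated ends where the table has none. Whole-number pileups that return the deposited values within 0.01 gave the counting intervals, which cover counting error only, and a depth ratio. Read numbers of the libraries are not known. Named were the 4 genes, every gene touching the window and the nearest on each side, every region with a GLI1 site, the 5 highest regions of each list, and the 5 strongest and 3 weakest sites. Regions at the edge of the rule were chosen after their values were seen, namely the lowest ratio, the control-only region and the strongest dox-only region without a site. 1 gene of the Hedgehog list is not reported here. Alternatives were other thresholds, overlaps, scalings and distances. Merging and recovery were tested on simulated data. Python 3.11.15, numpy 2.4.6, scipy 1.17.1 and matplotlib 3.10.9 were used.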

Additional observations from a re-analysis of the deposited data

How the results depend on the processing

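Raising the H3K27ac threshold to a −log10 q of 10 left 28 dox-only regions in place of 146, 0 control-only in place of 1, and 7 higher shared regions in place of 17. Merging intervals up to 1000 bp apart gave 41 dox-only and 11 higher shared regions. The shares over all regions of the series at these settings are not given here. The log2 ratio at the Ercc6l2 start was −0.031 by recovered pileups at equal depth, a change of sign that comes with the local backgrounds given above, and 2.80 when both annotated ends were taken, an alternative added after seeing the data, which brings in the 3′ region. The other 55 of 62 alternatives kept their direction and stayed within the spread or factor set for that result, but some crossed the log2 limit of 1. These were Ptch1 (0.94 by pileups at equal depth), the median of the shared regions (0.89 at the higher threshold and 0.97 without centring) and Ercc6l2 (1.11 with the strongest region in the gene). Among the 55, the covered-length ratio was 5.14 to 5.74, Ptch1 0.94 to 1.44, Fancc 0.20 to 0.36, and the share of sites in a control interval 26.7 to 60.0%. The matching shares over all sites of the series at those settings are not given here. Fancc had no ratio with both annotated ends, and Hsd17b3 none in the report's measure, since no region lay within 1000 bp of its start. No paired analysis was possible because each list pools its replicates, and for the same reason no replicate could be left out. Depth limits the control summits, 11 to 27 reads, behind the 5 largest ratios.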
